A study of Mus musculus with 2 samples.

Results

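The E protein genes Tcf3, Tcf12 and Tcf4 and the Id protein genes Id1, Id2 and Id3 were described by the accessible regions in 6 windows of the mm9 mouse genome, 1 around each gene. A peak belonged to a window when its centre lay in it. The windows were chr10:79800001-79950000 for Tcf3, chr9:71640001-72050000 for Tcf12, chr18:69400001-69950000 for Tcf4, chr2:152460001-152660000 for Id1, chr12:25580001-25980000 for Id2 and chr4:135600001-135800000 for Id3. They held 126 of 85764 wild-type peaks and 106 of 69896 double-knockout peaks, 232 of 155660 in all. Each window reaches beyond its gene. RefSeq's annotation of GRCm38.p6 places Uqcr11 and Onecut3 beside Tcf3, Cgnl1 and Zfp280d beside Tcf12, Mc2r and Ccdc68 beside Tcf4, Mcts2 and Cox4i2 beside Id1, Kidins220 and Rnf144a beside Id2, and Rpl11 and E2f2 beside Id3. No mm9 annotation was used here, so a peak is assigned to a window and not to a promoter, an exon or an intron.

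Open chromatin was mapped by ATAC-seq: a transposase cuts and tags DNA that is not covered by nucleosomes. The cells were early thymic progenitors (ETPs), the least mature thymocytes, sorted from fetal thymus of C57BL/6 mice as CD4-, CD8-, lineage-negative, CD44+, CD25- and Kit+ cells. There was 1 library from wild-type animals and 1 from animals of the genotype E2Afl/flHEBfl/flIL7RCre, called the double knockout here, whose cells were also gated on YFP. In the latter, Cre recombinase driven from the IL7R locus acts on floxed E2A and HEB alleles, so deletion is limited to cells with a history of that driver. The sources used here give neither age and sex of the embryos nor pooling or read depth, and peak lists do not show whether E2A and HEB were lost. The deleted segments of Tcf3 and Tcf12 were not located, and the sorted cell type was not checked against marker genes. The wild-type list held 10 peaks on chromosome Y and the double-knockout list 0. All 6 windows are on autosomes. With 1 library per genotype no difference between genotypes was tested, and the intervals below are exact Clopper-Pearson 95% intervals that cover counting error over peaks only.

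E proteins belong to the basic helix-loop-helix factors, which pair up and bind short DNA words called E-boxes (CANNTG, with N any base). Tcf3 encodes E2A with its splice forms E12 and E47, Tcf12 encodes HEB, and Tcf4 encodes the related protein E2-2. Id proteins carry the helix-loop-helix part without the basic region that contacts DNA, so that an E protein bound to an Id protein cannot bind an E-box. In the thymus, E proteins promote the T cell programme, Id3 is known as a gene induced by T cell receptor signals, and Id2 is required for innate lymphoid and natural killer cells.

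The promoter sequences at hand are shown because E-boxes are the words that E proteins bind. RefSeq promoters of GRCm38.p6 were matched for 4 of the genes, Tcf3, Tcf12, Id2 and Id3. The 250 bases before the start are printed 5′ to 3′ on the strand of the gene, with every CANNTG in capitals. They lie at chr10:80433636-80433885 (minus strand) for Tcf3, chr9:72111820-72112069 (minus) for the first of 3 listed starts of Tcf12, chr12:25096093-25096342 (minus) for Id2 and chr4:136143572-136143821 (plus) for Id3. These are GRCm38.p6 positions and cannot be set beside the mm9 positions of the peaks.
Tcf3: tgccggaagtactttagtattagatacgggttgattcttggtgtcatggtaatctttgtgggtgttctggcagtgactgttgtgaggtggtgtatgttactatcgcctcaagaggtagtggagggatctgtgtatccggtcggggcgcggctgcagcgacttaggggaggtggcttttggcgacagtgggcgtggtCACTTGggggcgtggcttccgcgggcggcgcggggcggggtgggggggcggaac
Tcf12: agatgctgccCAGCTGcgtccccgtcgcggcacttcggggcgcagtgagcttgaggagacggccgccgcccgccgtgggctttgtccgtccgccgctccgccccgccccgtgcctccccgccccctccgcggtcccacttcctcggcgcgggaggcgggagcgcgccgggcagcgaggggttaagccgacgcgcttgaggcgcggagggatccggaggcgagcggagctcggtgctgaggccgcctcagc
Id2: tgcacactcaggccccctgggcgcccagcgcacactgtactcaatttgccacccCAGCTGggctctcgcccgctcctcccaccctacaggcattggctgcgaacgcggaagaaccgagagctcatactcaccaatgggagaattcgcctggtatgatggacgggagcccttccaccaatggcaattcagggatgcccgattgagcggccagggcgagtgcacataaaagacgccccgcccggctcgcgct
Id3: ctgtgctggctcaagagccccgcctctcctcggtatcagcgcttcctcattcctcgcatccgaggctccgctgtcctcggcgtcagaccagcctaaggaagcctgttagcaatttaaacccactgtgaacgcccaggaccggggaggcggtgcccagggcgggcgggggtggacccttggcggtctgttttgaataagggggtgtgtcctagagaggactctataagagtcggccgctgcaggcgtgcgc

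Tcf12 and Id2 each held 1 CAGCTG, beginning 240 and 196 bases before the start. Tcf3 held 1 E-box of another type, CACTTG, beginning 54 bases before the start, and Id3 held no CANNTG in this stretch. Of the other 2 listed starts of Tcf12, 1 had a CAAGTG and the other no match. Over 32841 promoters of the same length, searched on both strands, 66.2% held a CANNTG and 13.0% a CAGCTG, so that 1 E-box is common, while the CAGCTG form is held by fewer promoters. The forms CAGGTG (17.2% of all promoters) and CAGATG (14.4%), which like CAGCTG are included in CANNTG, were found in none of these 4 genes. A match is a description of letters and does not show that a factor binds there.

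The 6 windows were denser in accessible regions than the genome in both genotypes. They held 6.60 wild-type and 5.55 double-knockout peaks per 100 kb, against 3.25 and 2.65 over the genome. The genome value is taken over whole chromosomes, including stretches far from genes. Windows around other genes were not counted, so the density is not shown to be particular to these loci. The density was highest at Id1, with 12.0 and 10.5 peaks per 100 kb, and lowest at Tcf12, with 3.90 and 3.42. The authors' score of a peak has no stated unit and is used only to rank peaks within a list. Scores of the windows ran from 3.07 to 70.2 in the wild type (median percentile 54.0 of that list), and double-knockout scores from 2.97 to 87.2 (median percentile 50.9). Among the strongest 10% of each list were 9 of the 126 wild-type peaks and 7 of the 106 from the double knockout. As a share of the windows' peaks these were 7.14% and 6.60%, so very strong peaks were not in surplus among the peaks. Their number per kb was not compared.

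Most regions at these genes were called in both genotypes. Of the wild-type peaks, the shared part was largest at Id3 and smallest at Tcf4. A region was shared when its peaks overlapped by at least 1 bp. Over the 6 windows, 84 regions were shared, equal to 66.7% of those called in the wild type (95% interval 57.7 to 74.8%) and 79.2% of the peaks called in the double knockout (70.3 to 86.5%). Over the whole lists the shares were 60.9% and 74.7%. Peaks of high score are shared more often, and a set of peaks with the same score deciles as those in the windows would be shared at 62.2% and 74.1%. The windows' shares thus stood near those of the lists. At Id3, 18 of 20 wild-type peaks were shared, or 90% (68.3 to 98.8%), and at Tcf4 14 of 28, or 50% (30.6 to 69.4%). Of the 12 intervals (6 windows in 2 libraries), 1 excluded the share of its whole list, that of the wild-type peaks at Id3. Among the wild-type peaks of the other windows, 73.3% were shared at Tcf3, 70.8% at Id1, 65.2% at Id2 and 56.2% at Tcf12. Of the double-knockout peaks, the shared part was smallest at Tcf12, with 64.3%, and was 70% at Tcf4, 81.0% at Id1, 83.3% at Id2, 84.6% at Tcf3 and 90% at Id3.

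**Figure D1:**
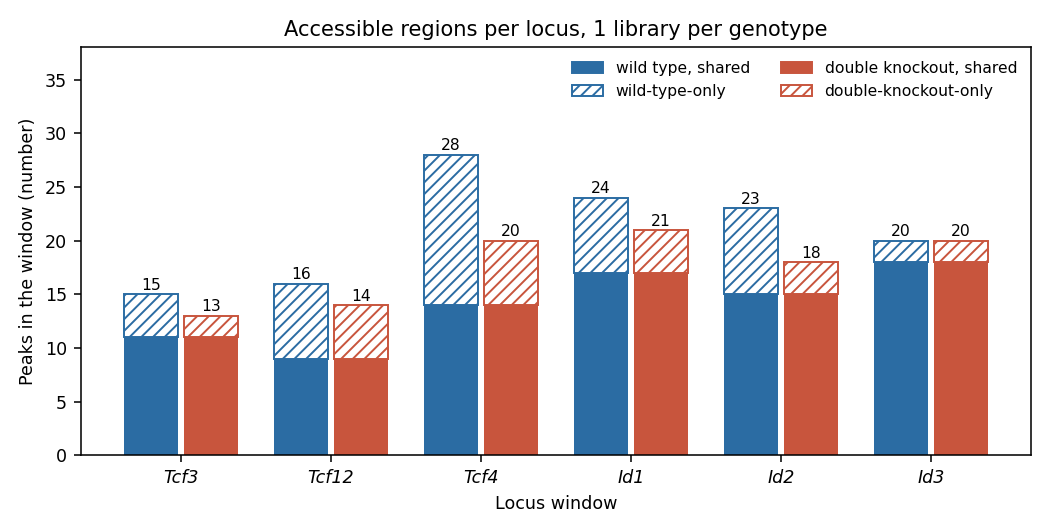
Number of peaks in each window (vertical axis) for the wild-type and the double-knockout library, with shared peaks filled and library-only peaks hatched and the total above each bar. Id3 has 20 peaks in each library, of which 18 are shared, and Tcf4 has 28 against 20, of which 14 are shared.

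Regions found in 1 library resembled those of the whole lists in score and in distance to the other list. Over the whole lists, 39.1% of wild-type peaks and 25.3% of double-knockout peaks were library-only. In the windows 42 wild-type and 22 double-knockout peaks were of this kind, with a median percentile of 28.6 and 25.7 in their own lists, against 28.6 and 30.5 for all library-only peaks. Of the 42, 20 stood below percentile 25 and 5 above percentile 75. Those 5 were 1 at Tcf3 and 4 at Id1, and each had a double-knockout peak within 802 bp. A peak of the other list lay within 500 bp for 7 of the 42 (16.7%) and 8 of the 22 (36.4%), against 14.6% and 31.2% of all library-only peaks, and within 5 kb for 19 (45.2%) and 15 (68.2%), against 41.9% and 65.5%. Since nearly every peak has the same width of 151 bp, a single accessible stretch may carry its peak at another place in each list.

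For the 84 shared regions, the scores were turned into ranks among the 52206 regions shared over the genome, from 0 (weakest) to 100. This set has the same length in both libraries, which the whole lists do not. A step of at least 10 points between the libraries was counted. In the windows, 21 regions (25%) ranked at least 10 points lower in the double knockout and 21 (25%) at least 10 points higher. Over all shared regions the shares were 21.5% lower and 23.7% higher, so the windows as a whole stood near the background. With percentiles of the whole lists in place of ranks among shared regions, the split was 30 lower and 19 higher, beside 31.3% and 14.6% of all shared regions. The windows differed in their split, on 9 to 18 shared regions each and 1 library per genotype. These splits did not hold under every setting. In the upper 50% of both lists Id3 had 2 of 9 lower and 0 higher, and Tcf4 kept 2 regions without a step. In wider windows Id2 had 6 lower and 6 higher of 18. At Tcf4 8 of 14 regions were lower and 1 higher, and at Id2 6 of 15 were lower and 3 higher. At Id3 0 of 18 were lower and 7 higher, and at Tcf3 0 of 11 were lower and 3 higher. Tcf12 had 2 lower and 3 higher of 9, and Id1 5 lower and 4 higher of 17. Below, single regions are set beside the share of all shared regions with as large a step. Most of them were picked for the size of their step among the 84, so a small share is no measure of rarity.

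**Figure D2:**
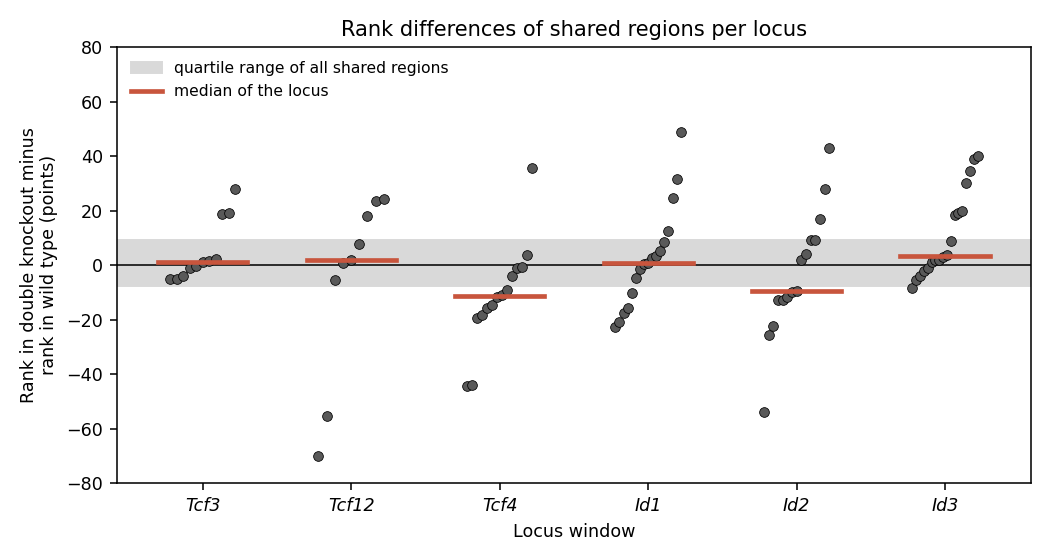
Rank in the double knockout minus rank in the wild type, in points (vertical axis), for each shared region of a window (dots, drawn in order of value), with the median of the window as a bar and the quartile range of all 52206 shared regions as a grey band. The median is -11.31 at Tcf4 and -9.29 at Id2, and between 0.94 and 3.45 in the other 4 windows.

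Tcf3, 1 of the 2 genes targeted in the double knockout, had its 2 strongest regions at the top of both lists. The window held 15 wild-type and 13 double-knockout peaks, and 11 were shared. The strongest, chr10:79862393-79862543, had a score of 70.2 in the wild type (percentile 99.4) and its partner, with its centre 49 bp away, a score of 78.5 in the double knockout (percentile 99.1). The next, chr10:79896754-79896904, stood at 49.1 (percentile 97.2) and 71.8 (percentile 98.6). Both regions thus lay in the uppermost 3% of each list.

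The other shared regions at Tcf3 differed little in rank, or ranked higher in the double knockout. The largest step was at chr10:79938074-79938224, with scores of 8.87 and 15.3 and ranks of 40.2 and 68.3. The remaining 2 steps, at chr10:79811204-79811354 and chr10:79909032-79909182, were of 19.0 and 19.2 points. Among all shared regions 6.35% had a step upward at least as large as the first. No region of the window was lower by 10 points, the lowest difference being -5.06, whereas percentiles of the whole lists put 2 regions lower, a window wider by 50 kb on both sides 2 of 21, and the upper 50% of both lists 1 of 8.

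The 6 library-only peaks at Tcf3 all lay within 5 kb of a peak of the other list. The strongest wild-type-only peak of all 6 windows was among them, chr10:79861640-79861790 with a score of 27.8 (percentile 90.2). It lay 802 bp from the strongest double-knockout peak of the window, which is itself shared. The strongest double-knockout-only peak, chr10:79850421-79850571 (score 10.3, percentile 60.6), lay 259 bp from a wild-type-only peak with a score of 10.8. When peaks up to 500 bp apart were also paired, 100% of the double-knockout peaks at Tcf3 had a partner.

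Tcf12, the other targeted gene, held the 2 largest downward steps of all 6 windows. The first was at its strongest wild-type peak, chr9:71799163-71799313, which had a score of 25.3 (percentile 88.6 of the wild-type list). Its double-knockout partner, 23 bp away, had a score of 4.14 (percentile 17.5). Its ranks among shared regions were 82.5 and 12.6, a difference of -69.86 points. Only 0.268% of all shared regions, and 1.42% of those in the same wild-type decile, had a step as far down. The second was at chr9:71936827-71936977, with scores of 12.3 and 3.08 and ranks of 56.4 and 1.09. Of all shared regions 1.44% had a step as far down as this one.

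These 2 regions stood among others that mostly ranked higher in the double knockout. The exception was chr9:71654383-71654533, with ranks of 20.1 and 14.8. At chr9:71981269-71981419 the scores were 12.9 and 12.2, the latter being the strongest double-knockout peak of the window, and the ranks 58.8 and 60.6. At chr9:71945018-71945168 they were 10.8 and 11.5, with ranks of 50.4 and 58.3. The regions that ranked higher by 10 points or more were chr9:71958916-71959066 (ranks 35.5 and 59.7), chr9:71679709-71679859 (22.6 and 46.1) and chr9:72017837-72017987 (19.3 and 37.6). The median difference of the 9 shared regions was 1.85 points, with 6 of them higher in the double knockout by any amount. A window narrowed by 25% of its length on both sides left 3 regions, 2 of them the low ones, and a median of -55.3. By percentiles of the whole lists 3 of the 9 were lower and 3 higher by 10 points, with a median of -3.34.

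The Tcf12 window had 7 wild-type-only and 5 double-knockout-only peaks. The strongest of each, chr9:71959819-71959969 (score 10.2, percentile 61.6) and chr9:71959638-71959788 (score 8.92, percentile 54.7), lay 181 bp from each other. The other 6 wild-type-only peaks were weak, with percentiles from 1.77 to 18.9. The longest stretch without a peak in either list measured 83.0 kb and followed directly on the first downward step. No Tcf12 peak was among the strongest 10% of either list.

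Tcf4, the E protein gene that was not targeted, had mostly lower-ranked shared regions in the double knockout, while its 2 strongest held their ranks. The window held 28 wild-type and 20 double-knockout peaks, and 22 against 20 at equal list lengths. In the whole lists, 12 of the 28 and 2 of the 20 stood above percentile 50 of their own list. The strongest, chr18:69503940-69504090, had scores of 51.4 (percentile 97.6) and 55.1 (percentile 96.3) and ranks of 96.3 and 95.4. The next, chr18:69752932-69753082, had scores of 23.1 and 23.5 and ranks of 79.99 and 79.55. These 2 regions held their ranks within 1 point.

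Of the 14 shared regions at Tcf4, 12 ranked lower in the double knockout by any amount, against 46.9% of all shared regions. The lowest were chr18:69825989-69826139, with scores of 12.0 and 4.03 and ranks of 55.6 and 11.5, and chr18:69525159-69525309, with 11.2 and 3.72 and ranks of 52.0 and 8.02. Steps as far down were found in 3.25% and 3.27% of all shared regions, and in 5.82% and 5.91% of those in the same wild-type decile. The other 6 downward steps ran from -10.83 to -19.49 points. The only upward step of 10 points or more was at chr18:69667570-69667720, where the scores were 3.40 and 7.11 and the ranks 1.86 and 37.6. Regions of high rank tend to be lower and regions of low rank higher in a second list: over the genome 9934 of the 26187 shared regions in the lower 50% of wild-type ranks were lower in the double knockout. At Tcf4 this was so for 7 of 9. In the upper 50% it was so for 14539 of 26019 regions over the genome and for 5 of 5 at Tcf4.

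The median difference at Tcf4 was -11.31 points and ran from -8.84 to -12.98 under the other overlap rules and at equal list lengths, and was -9.08 in a narrower and -10.83 in a wider window. The median was -1.77 in the upper 50% of both lists, where only the 2 strongest regions were left. With a step of 20 points, 2 regions were lower and 1 higher. By percentiles of the whole lists 10 of the 14 were lower, with a median of -20.92. The 14 wild-type-only peaks, 50% of the window's wild-type peaks against 39.1% of the list, included chr18:69752155-69752305 (score 11.7, percentile 67.3) and 8 (57.1%) with no double-knockout peak within 5 kb, near the 58.1% of all wild-type-only peaks. Peaks with the same score deciles would be shared at 55.6%, against the 50% found. The strongest double-knockout-only peak was chr18:69486903-69487053, with a score of 5.63 (percentile 33.4).

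**Figure D3:**
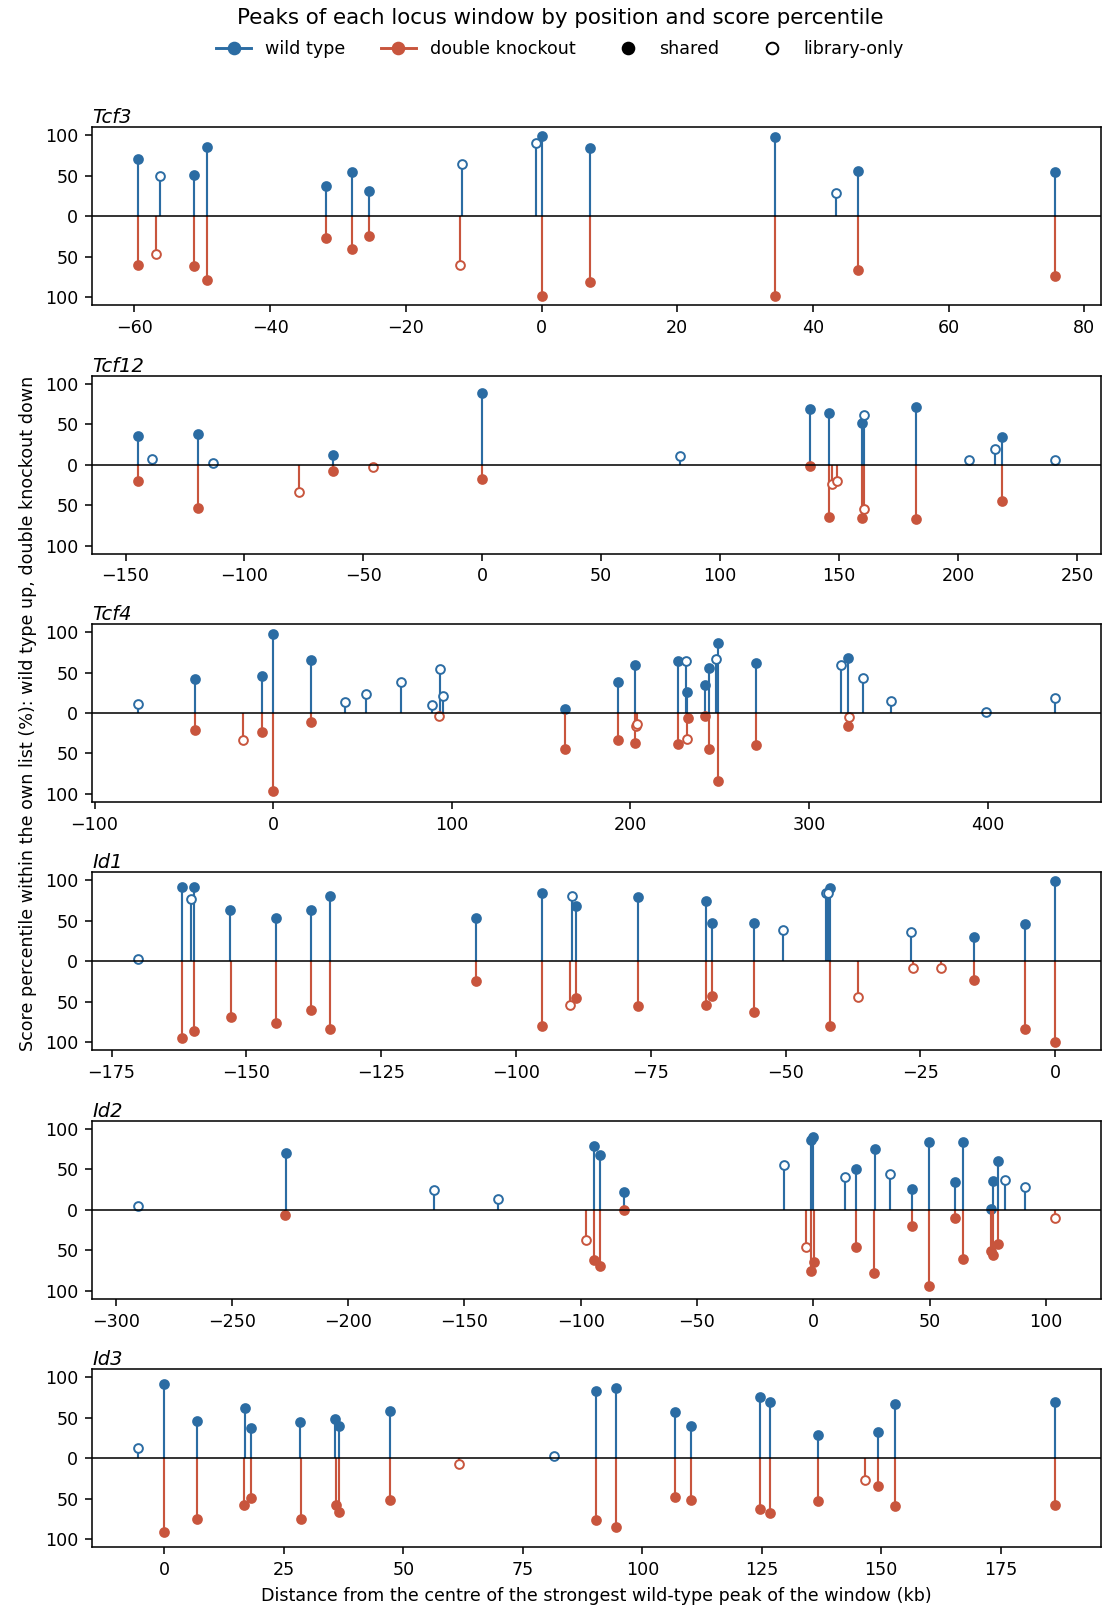
Peaks of the 6 windows by distance in kb from the centre of the strongest wild-type peak (horizontal axis) and by score percentile within their own list (vertical axis, wild type upwards, double knockout downwards), with shared peaks filled and library-only peaks open. At Tcf12 the peak at 0 stands at percentile 88.6 upwards and 17.5 downwards, and at Tcf4 2 double-knockout peaks stand above percentile 50.

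Id1 had the densest window, with 24 wild-type and 21 double-knockout peaks, of which 17 were shared. The strongest region, chr2:152657096-152657246, lay at the edge of the window and had scores of 69.9 (percentile 99.4) and 87.2 (percentile 99.5). At the other end chr2:152495163-152495313 stood at 31.8 (percentile 92.2) and 47.0 (percentile 94.5), and chr2:152497466-152497616 at 30.1 (percentile 91.4) and 26.3 (percentile 85.6). Among the strongest 10% of their list were 4 wild-type peaks and 2 double-knockout peaks of this window.

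The largest upward step of all 6 windows was in the Id1 window, near the same edge as its strongest region. On this chromosome RefSeq lists H13 before Mcts2 and Bcl2l1 after Cox4i2. No peak was assigned to Id1 or to any of these genes. At chr2:152651559-152651709 the scores were 7.45 (percentile 46.7) and 24.0 (percentile 83.8) and the ranks 31.2 and 80.1, a difference of 48.88 points. A step as far up was found in 1.41% of all shared regions and in 0.710% of those in the same wild-type decile. It was the peak next to the strongest region of the window. Upward steps of 31.6, 24.6 and 12.7 points were found at chr2:152512581-152512731, chr2:152601218-152601368 and chr2:152504154-152504304.

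Downward steps at Id1 were smaller, from -10.05 to -22.81 points over 5 regions. The lowest was chr2:152579784-152579934, with scores of 17.3 and 8.92 and ranks of 70.6 and 47.7. The median over the window was 0.94 points. The 7 wild-type-only peaks at Id1 were strong for their class, with a median percentile of 77.1, against 28.6 for the wild-type-only peaks of the whole list. Wild-type peaks of this window were strong as a whole, with a median percentile of 71.1 for all 24, against 50.2 over the list. The strongest wild-type-only peak was chr2:152614592-152614742 (score 20.9, percentile 84.7), 775 bp from a double-knockout peak. It stood in a row of 3 close wild-type peaks, with chr2:152614968-152615118 (score 20.5) and the shared chr2:152615370-152615520 (score 27.7, rank 84.9, against a score of 19.3 and rank 74.8 in the double knockout). Of 7 wild-type-only peaks, 3 lay within 500 bp and 5 within 5 kb of a double-knockout peak. The strongest double-knockout-only peak, chr2:152567195-152567345 (score 8.81, percentile 54.2), lay 346 bp from a wild-type-only peak with a score of 18.

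At Id2, as at Tcf12, the strongest region was not the same in both genotypes. The window held 23 wild-type and 18 double-knockout peaks, and 15 were shared. In the wild type the strongest was chr12:25875324-25875474, with a score of 26.6 (percentile 89.5). Its double-knockout partner, 94 bp away, had a score of 11.5 (percentile 64.6), and the ranks were 83.8 and 58.3. In the double knockout the strongest was chr12:25924965-25925115, with a score of 45.1 (percentile 93.9), while the wild-type partner 44 bp away had a score of 19.8 (percentile 83.5). The ranks of this region were 75.2 and 92.4. A step of that size upward was found in 13.9% of all shared regions, but in 0.782% of those in the same wild-type decile, which have less room above them.

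Most regions at Id2 lay in an array on 1 side of a stretch of 68.9 kb without a peak in either list. The array, between 25862814 and 25979526, held 16 of the 23 peaks in the wild type, and 13 of 18 in the double knockout. The strongest region of each list and all 3 upward steps of 10 points or more lay in this array. At chr12:25951763-25951913 the scores were 3.07 and 8.07 (ranks 0.270 and 43.2), and at its neighbour chr12:25952663-25952813 they were 6.02 and 9.13 (ranks 20.9 and 48.8). In the same array chr12:25939721-25939871 had scores of 20.5 and 10.3 and ranks of 76.3 and 54.1. Higher and lower regions were thus found side by side.

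On the other side of the empty stretch, chr12:25648351-25648501 had the largest downward step at Id2, with scores of 12.8 and 3.40 and ranks of 58.4 and 4.40. Of all shared regions 1.63% had a step as far down. At chr12:25780979-25781129 the ranks were 68.5 and 55.7, and at chr12:25783669-25783819 they were 54.7 and 64.2. The median difference over the 15 regions was -9.29 points. It was 3.11 when the window was widened by 50 kb on both sides, with 6 regions lower and 6 higher of 18, so the direction for Id2 rests on where the window ends. Of the 8 wild-type-only peaks 6 had no double-knockout peak within 5 kb, a share of 75% beside 58.1% over the list. The strongest of them was chr12:25862814-25862964 (score 8.87, percentile 55.2), and the strongest double-knockout-only peak was chr12:25872178-25872328 (score 7.22, percentile 45.5).

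With all peaks counted, Id3 had the most alike lists, with 20 peaks in each and 18 shared. The strongest region, chr4:135609246-135609396, lay near the edge of the window and was not assigned to a gene. It had scores of 31.1 (percentile 91.9) and 37.8 (percentile 91.5) and ranks of 87.5 and 89.3. The next was chr4:135703691-135703841, with 22.5 and 25.1 and ranks of 79.2 and 81.1, followed by chr4:135699616-135699766, with 19.5 and 16.8 and ranks of 74.7 and 70.9. The 3 strongest regions were therefore within 4 points of their wild-type rank.

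Of the 18 shared regions at Id3, 13 ranked higher in the double knockout by any amount, against 53.1% of all shared regions. The 7 with a step of 10 points or more all had wild-type ranks below 33. The largest steps were at chr4:135637661-135637811, with scores of 7.23 and 16.2 and ranks of 29.7 and 70.03, and at chr4:135616127-135616277, with 7.34 and 16 and ranks of 30.5 and 69.6. At chr4:135645834-135645984 the scores were 6.57 and 11.9 and the ranks 25.1 and 59.7. Steps upward at least this large were found in 2.85%, 3.10% and 4.16% of all shared regions. A region of low wild-type rank has more room above than below it, so these steps were also set beside regions of the same wild-type decile, where the shares were 5.17%, 3.06% and 7.57%.

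No region at Id3 was lower by 10 points, the lowest difference being -8.47, and this also held at equal list lengths, under the other overlap rules and in a narrower window. In the wider window 1 of 26 regions was lower, and by percentiles of the whole lists 2 of 18 were. In the upper 50% of both lists, 2 of 9 regions were lower and 0 higher by ranks among the regions left there. In that setting 90% of the wild-type but 60% of the double-knockout peaks at Id3 were shared, against 61.5% and 74.9% of the lists. The 4 library-only peaks were weak. The strongest were chr4:135603691-135603841 in the wild type (score 3.94, percentile 13.2) and chr4:135755910-135756060 in the double knockout (score 4.99, percentile 27.4).

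**Figure D4:**
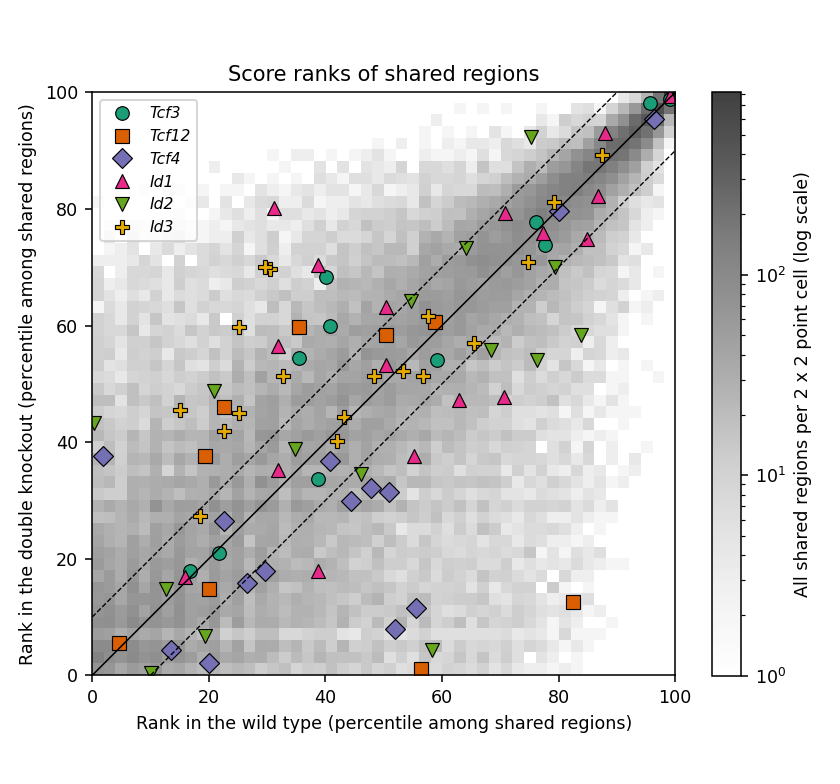
Rank of shared regions in the wild type (horizontal axis) and in the double knockout (vertical axis), as percentiles among all 52206 shared regions, whose number per cell is shown in grey on a log scale, with the 84 regions of the 6 windows as coloured symbols. The solid line marks equal ranks and the dashed lines a step of 10 points; the lowest symbol on the right is the Tcf12 region with ranks of 82.5 and 12.6, and the highest Id1 symbol on the left is the region with ranks of 31.2 and 80.1.

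The strongest wild-type region of each of the 6 windows was not assigned to a gene, and at Id1 and Id3 it lay near the window's edge. It ranked within 3 points of its wild-type rank in the double knockout in the Tcf3, Tcf4, Id1 and Id3 windows. In the Tcf12 and Id2 windows it ranked more than 25 points lower. The first 4 started at ranks of 99.08, 96.28, 99.05 and 87.48, against 82.48 at Tcf12 and 83.84 at Id2. Regions near the top seldom take large steps, so the starting rank bears on this contrast. In the same wild-type decile, 1.42% of regions had a step as far down as at Tcf12 and 10.9% as at Id2. Whether the E2A and HEB loss, the YFP gate or the library itself goes with these differences cannot be told apart with 1 library per genotype. The same holds for the sex of the embryos and for any floxed DNA removed inside the Tcf3 and Tcf12 windows.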

How the data were processed

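The deposited values are 1 ATAC-seq peak list per library, called per sample. Per the submitters' processing notes the tools were bcl2fastq 1.8.4, Bowtie and HOMER and the build mm9, with no role or setting. The peak threshold, the treatment of duplicates and any shift of read ends for the transposase, not given in the sources used here, bear on which weak peaks are listed. The score the authors deposited for each peak comes with neither header nor unit, so it served only for ranks within a list. Read depth is unknown.

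Comparisons ran in pandas 2.3.3 and SciPy 1.17.1 under Python 3.11.15, and figures in Matplotlib 3.10.9. Positions are 1-based. Shared peaks overlapped by at least 1 bp and paired 1 to 1. Ranks were percentiles among all 52206 pairs. The pairing was tested on simulated lists. The genes, windows and gene lists were chosen with earlier results of these data known. The peaks named are the strongest and the strongest library-only peak of each library in each window and the 5 shared regions with the largest step in each direction; others were chosen after their values were seen. Marker genes were not examined, since no mm9 annotation was used.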

Additional observations from a re-analysis of the deposited data

How the results depend on the processing

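No paired analysis was possible because each genotype has a single library, which also leaves no replicate to omit. Over the 6 windows, pairing peaks up to 500 bp apart gave 87.7% of the double-knockout peaks shared (83.6% of the list) and 13 double-knockout-only peaks. Equal list lengths gave 75.7% of the wild-type peaks shared (68.6% of the list) and 26 wild-type-only peaks. The upper 50% of both lists kept 27 wild-type-only peaks out of 67 and 14 double-knockout-only peaks out of 54. Of the 40 shared regions left there, 10 were lower and 10 higher in rank, beside 20.6% and 21.1% of all. Windows narrowed by 25% of their length on both sides left 18 of 57 wild-type and 11 of 50 double-knockout peaks library-only. Of their 39 shared regions, 12 were lower and 6 higher. Windows widened by 50 kb gave 27 lower and 33 higher of 114. Over all shared regions 21.5% were lower and 23.7% higher. A step of 20 points left 9 of the 84 regions lower and 13 higher, beside 12.0% and 11.3% of all shared regions. The score limit, the equal lengths and the window limits change the number of peaks counted by construction. The other values over the 6 windows stayed within their interval or within 1.5 times. Of 96 shares per gene and setting, 88 stayed within the interval of the share as reported. These intervals are wide, with 13 to 28 peaks per window, and the settings reuse the same peaks, so staying inside says little. In the upper 50% of both lists, the Tcf4 shares were 16.7% of wild-type and 100% of double-knockout peaks, from 50% and 70%. The Id3 double-knockout share fell there from 90% to 60%. At equal list lengths the Tcf12 wild-type share rose from 56.2% to 88.9%. The counts of steps per gene under each setting were added after the data were seen. What depth limits cannot be said, as the depth is unknown.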
